A study of Mus musculus with 12 samples.

Results

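The genes described here are the hair keratins, the keratin-associated proteins and trichohyalin, which together build the hair fibre and its inner root sheath. They were taken from the array annotation: every probe set that named a single gene was kept if its symbol started with Krtap or was one of the hair and inner root sheath keratins or Tchh. This gave 61 of 45101 probe sets, for 56 of 18194 genes: 7 inner root sheath keratins, 1 trichohyalin gene, 6 type I and 4 type II hair shaft keratins, and 38 keratin-associated proteins. No probe set named Krt85 alone, and 6 further keratin-associated probe sets that name several genes each were left out. A gene with several probe sets is given by the one with the highest mean over all arrays.

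Whole ear tissue was collected from 2-, 4- and 6-week-old mice homozygous for Spade and from their wild-type littermates, and total RNA of each sample was read on 1 Affymetrix Mouse Genome 430 2.0 array. The 12 arrays fall into 6 groups of 2: Spade/Spade at 2 weeks (replicates 2 and 3), wild type at 2 weeks (1 and 2), Spade/Spade at 4 weeks (1 and 2), wild type at 4 weeks (1 and 3), Spade/Spade at 6 weeks (3 and 4) and wild type at 6 weeks (1 and 3). Spade is described in the study of this line as an activating allele of Jak1, a kinase that passes cytokine signals on to STAT factors, and homozygous mice develop an inflamed skin. The labels state neither strain nor sex and no animals are identified in them, so the p-values given here cover the spread among samples and nothing more. In whole ear, fewer cells of a type and less RNA per cell cannot be told apart.

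Hair follicles pass through growth, regression and rest, and the hair keratins and their associated proteins are made only while a fibre is being built. Inner root sheath keratins and trichohyalin form the sheath that moulds the growing fibre. Type I and type II hair keratins pair into the filaments of the shaft itself, and keratin-associated proteins fill and cross-link the space between those filaments. In mice the first hair coat grows after birth, comes to rest, and is followed by a second growth phase some weeks later.

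Levels are the deposited GCRMA values on a log2 scale, which have a floor of 2.14 on all arrays. A level less than 0.1 above it is called at the floor here, and some probe sets repeat a higher low value of their own. Between 52.3% and 58.1% of all probe sets were called present on an array, and the median over all 18194 genes lay between 7.13 and 7.41 on every array. The replicates of 5 groups had r = 0.985 to 0.994 across the 11984 genes tested, and the 2-week mutants 0.939. Markers of basal and suprabasal epidermis were alike on all arrays. The mean of 5, such as Krt5 and Krt10, was 15.265 on 2-week mutant replicate 3 and 14.961 to 15.371 on the other 11 arrays. Those of hyperproliferative epidermis were not: the mean of 4, such as Krt6b and Krt16, was 12.75 on that array and 7.983 to 12.811 on the others. Skeletal muscle markers were not alike, with a mean of 10.676 on that array and 13.172 to 14.224 on the others. The 2-week mutant replicate 3 stands apart from all other arrays in the hair genes, and results that rest on it are given with and without it.

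RefSeq promoter windows (build GRCm38.p6) were found for 49 of the 56 genes, and those of 6 genes that carry the patterns described here are shown as the 250 bases before the annotated start. Krt27 and trichohyalin represent the inner root sheath, Krt34 the shaft, and Krtap8-1, Krtap16-3 and Krtap22-2 the keratin-associated proteins, of which Krtap8-1 differs from the other two at 6 weeks. Capitals mark TATAAA, the core of a TATA box, and CTTTGAA, a core bound by LEF1 and TCF factors, on either strand (TTTATA and TTCAAAG on the other).
Krt27 (chr11:99351119-99351368, minus strand): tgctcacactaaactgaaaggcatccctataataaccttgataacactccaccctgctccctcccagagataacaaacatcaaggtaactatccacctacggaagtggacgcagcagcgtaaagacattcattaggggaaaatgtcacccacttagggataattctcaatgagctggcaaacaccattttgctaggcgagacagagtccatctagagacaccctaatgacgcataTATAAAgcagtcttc
Tchh (chr3:93442080-93442329, plus strand): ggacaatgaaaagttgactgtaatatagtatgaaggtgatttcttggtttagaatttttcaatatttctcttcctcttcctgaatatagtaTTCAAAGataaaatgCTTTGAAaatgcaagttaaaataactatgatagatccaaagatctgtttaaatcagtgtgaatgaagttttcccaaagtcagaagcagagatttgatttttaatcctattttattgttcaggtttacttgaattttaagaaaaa
Krt34 (chr11:100041555-100041804, minus strand): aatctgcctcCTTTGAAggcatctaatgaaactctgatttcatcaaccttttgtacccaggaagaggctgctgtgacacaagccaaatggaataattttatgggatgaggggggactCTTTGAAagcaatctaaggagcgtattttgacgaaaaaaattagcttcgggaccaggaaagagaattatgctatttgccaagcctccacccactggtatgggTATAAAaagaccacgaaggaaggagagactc
Krtap8-1 (chr16:89487953-89488202, minus strand): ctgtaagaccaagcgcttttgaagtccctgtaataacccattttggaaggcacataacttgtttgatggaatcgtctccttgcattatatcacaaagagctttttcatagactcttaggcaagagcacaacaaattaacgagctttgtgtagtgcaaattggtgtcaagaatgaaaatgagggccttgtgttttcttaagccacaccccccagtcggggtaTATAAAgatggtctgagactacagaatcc
Krtap16-3 (chr16:88962874-88963123, minus strand): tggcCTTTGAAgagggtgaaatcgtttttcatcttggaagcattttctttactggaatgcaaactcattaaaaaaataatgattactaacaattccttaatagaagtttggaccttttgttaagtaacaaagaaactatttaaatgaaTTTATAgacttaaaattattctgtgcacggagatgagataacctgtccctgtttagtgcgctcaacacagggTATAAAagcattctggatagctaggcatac
Krtap22-2 (chr16:89010760-89011009, minus strand): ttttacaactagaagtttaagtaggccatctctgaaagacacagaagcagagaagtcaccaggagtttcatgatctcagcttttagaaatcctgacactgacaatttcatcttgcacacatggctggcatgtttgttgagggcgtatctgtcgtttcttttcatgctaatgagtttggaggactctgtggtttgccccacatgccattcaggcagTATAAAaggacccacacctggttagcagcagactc

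TATAAA was present on either strand in 40 of the 49 member windows of 300 bases (81.6%), against 13.6% of all 32851 RefSeq windows of that length. On the sense strand and starting 36 to 26 bases before the annotated start, it was present in 27 of the 49 (55.1%), against 1.73% of all windows. Krtap8-1, Krtap16-3, Krtap22-2 and Krt34 have it there, Krt27 has it nearer to the start, and Tchh has none in this window. CTTTGAA was present in 12 of the 49 (24.5%), against 5.14% of all windows, and Krt34 and Tchh each have it at 2 places. These matches describe the letters only. Members share clusters and recent copies, so the windows are not independent of each other: 20 members lie on chromosome 11, 20 on chromosome 16, 7 on chromosome 15 and 5 on chromosome 7.

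On 2-week mutant replicate 3 nearly the whole set was high. Its median over the 56 genes was 12.38, against 3.57 on 2-week mutant replicate 2 and 4.48 and 5.41 on the 2-week wild-type arrays. The median was 2.15 on both 4-week mutant arrays and 2.15 and 2.18 on the 4-week wild-type arrays. At 6 weeks it was 2.15 and 2.21 on the mutant arrays and 2.64 and 2.14 on wild-type replicates 1 and 3. The 2-week arrays therefore held the higher values in both genotypes, and at 4 weeks most members lay at or near the floor.

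**Figure D1:**
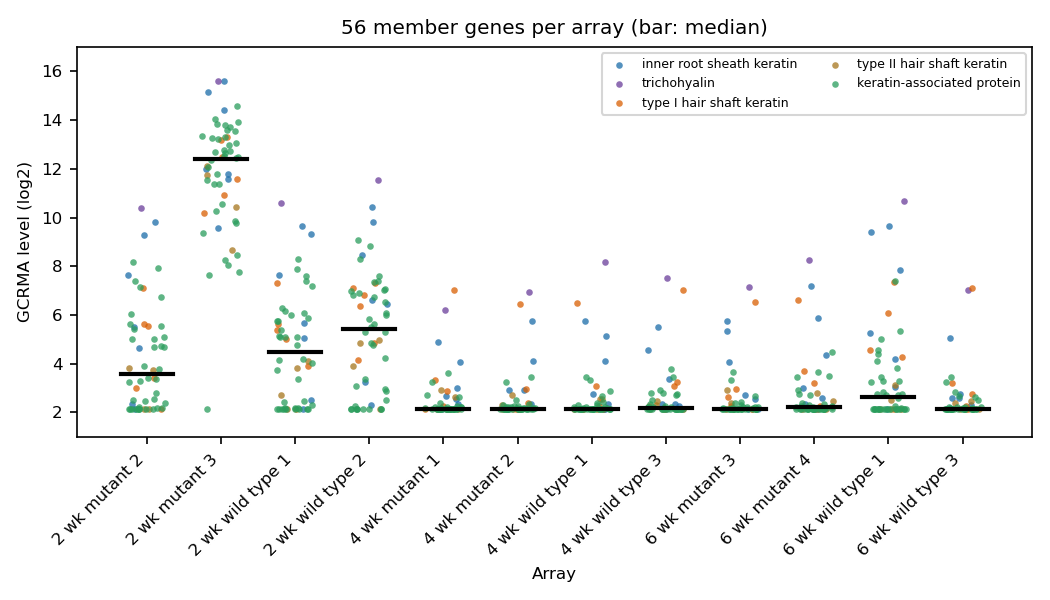
GCRMA level (log2, vertical axis) of each of the 56 genes on each of the 12 arrays (horizontal axis), coloured by class, with a bar at the median. The median is 12.38 on 2-week mutant replicate 3 and at most 5.41 on any other array.

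Detection calls separated the arrays as well. The authors' MAS5 calls, made on each array separately, marked 55 of the 56 members present on 2-week mutant replicate 3, 36 on mutant replicate 2, and 47 and 48 on the 2-week wild-type arrays. At 4 weeks 10 and 7 were present on the mutant arrays and 11 and 17 on the wild-type arrays. At 6 weeks 11 and 21 were present on the mutant arrays, and 31 and 11 on wild-type replicates 1 and 3. Tchh, Krt32 and Krt81 were called present on all 12 arrays. Krtap13 was at the floor on all 12.

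**Figure D2:**
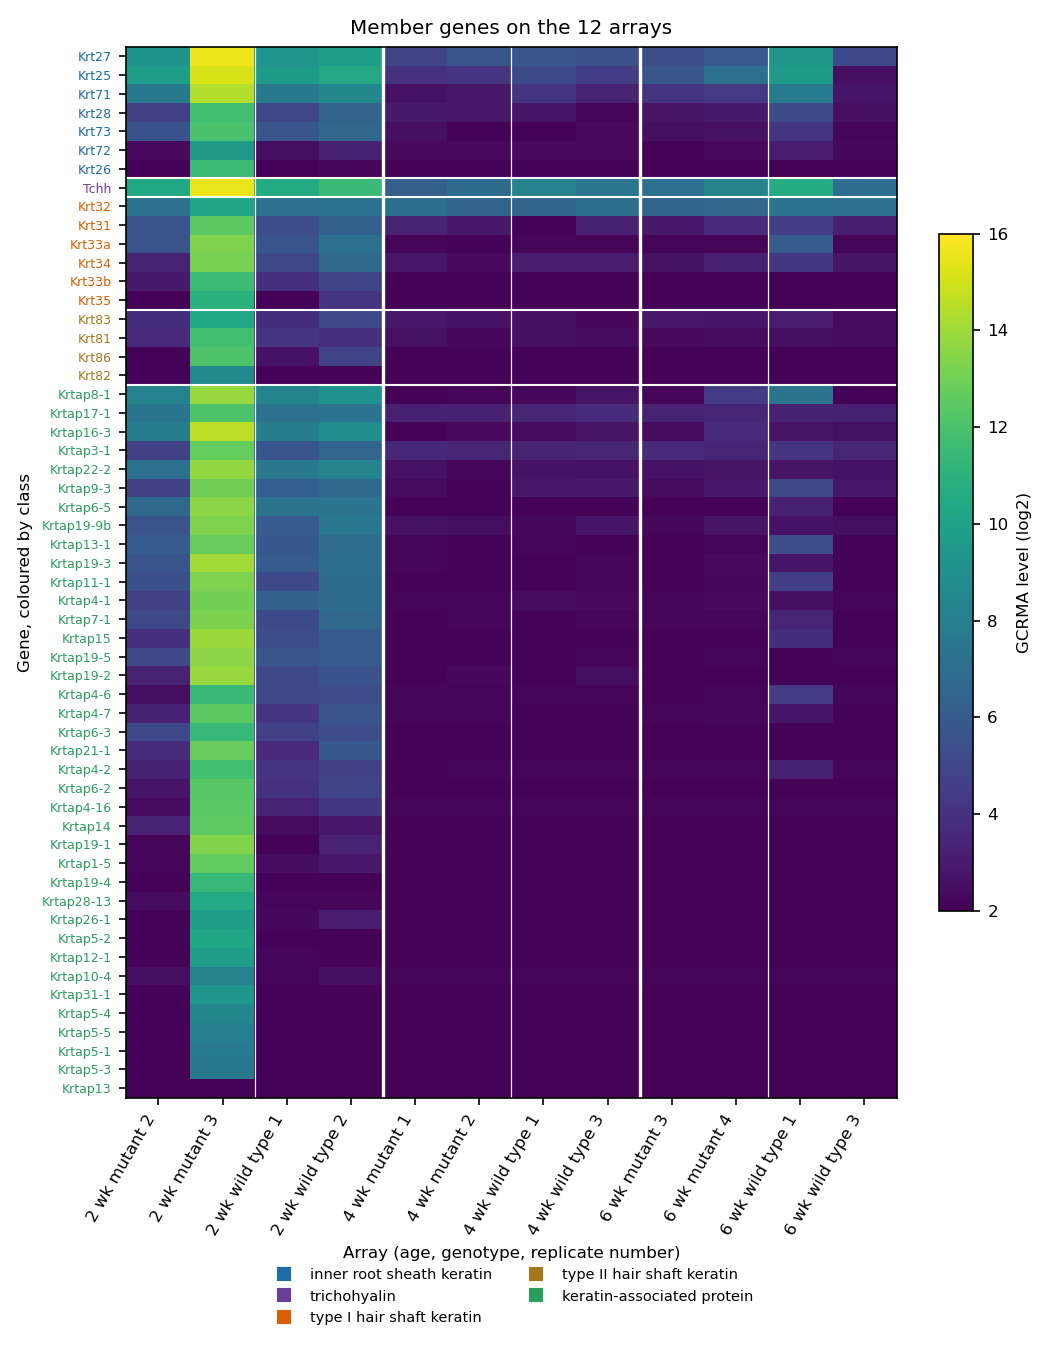
GCRMA level (log2, colour) of the 56 genes (rows, grouped and coloured by class) on the 12 arrays (columns, by age and then genotype). The 2-week mutant replicate 3 column is bright for all genes but Krtap13, the other 2-week columns are intermediate, and 6-week wild-type replicate 1 is bright in several inner root sheath rows and dark in many keratin-associated rows.

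The gap of 2-week mutant replicate 3 covered all classes. It lay above every other array for 55 of the 56 members, against 13.9% of all 18194 genes. The excess over the highest other array was 5 or more on the log2 scale for 50 of the 56, against 0.374% of all genes. Its median over the members was 6.31, and many lay at the floor elsewhere, where the size of an excess is uncertain. Only 68 genes on the array had an excess of 5 or more, and 50 of them were members. Values here describe 1 sample and carry no test.

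Among the inner root sheath keratins, Krt25, a type I keratin of the sheath, was at 15.16 on mutant replicate 3 and at 9.81 on mutant replicate 2, against 9.64 and 10.43 in wild type at 2 weeks. Krt27, its close relative, was at 15.62 and 9.27, against 9.31 and 9.81 in wild type. Krt71, a type II partner of these keratins, was at 14.41 and 7.66, against 7.65 and 8.45 in wild type. Mutant replicate 2 thus lay within or just below the wild-type range for these genes and replicate 3 was far above it. Krt26, a sheath cuticle keratin, was at 11.60 on mutant replicate 3 and at 2.29 or less on all other arrays. Trichohyalin, the matrix protein of the inner root sheath and the medulla, was at 15.61 and 10.37 in the mutants, against 10.61 and 11.52 in wild type.

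Shaft keratins behaved alike. Krt33a, a type I keratin of the hair cortex, was at 13.31 on mutant replicate 3 and 5.62 on mutant replicate 2, against 5.65 and 7.12 in wild type. Krt34, another cortex keratin, was at 13.19 and 3.42, against 5.03 and 6.82 in wild type. Krt86, a type II shaft keratin, was at 12.10 and 2.14, against 2.70 and 4.86 in wild type. For Krt34 and Krt86 mutant replicate 2 was below both wild-type arrays. Krt32, a type I keratin of the hair cuticle, had the narrowest excess after Krtap13: it was at 10.19 and 7.10, against 7.30 and 7.31 in wild type, and stayed between 6.45 and 7.35 at 4 and 6 weeks.

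Keratin-associated proteins differed in how far they stood off the floor on the other 2-week arrays. Krtap16-3 was at 14.60 and 7.92 in the mutants (replicates 3 and 2), against 7.88 and 8.83 in wild type at 2 weeks. Krtap19-1 was at 13.35 and 2.21, against 2.14 and 3.36 in wild type, an excess of 9.99 over the highest other array. Its second probe set had an excess of 3.53, and those of Krtap6-3 differed likewise, at 6.05 and 1.74. All 5 Krtap5 genes, Krtap12-1, Krtap19-4, Krtap31-1 and the type II keratin Krt82 were at the floor on every array but mutant replicate 3. Detection calls did not follow the floor: of these genes Krtap19-4 was called present on 7 of the 12 arrays, Krtap5-2 on 4 and Krtap31-1 on 3. Krtap5-2 was the highest of the Krtap5 probe sets there, at 10.28.

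**Figure D3:**
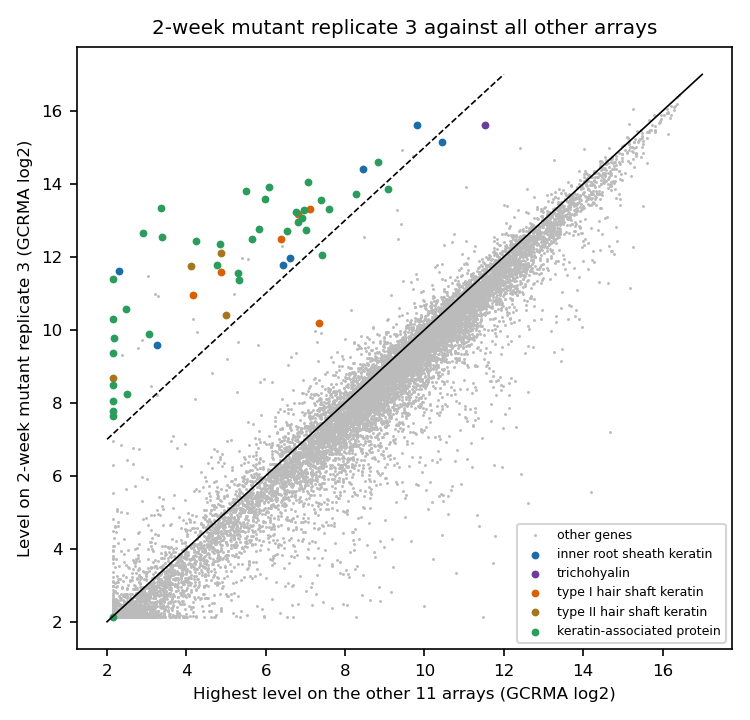
Level on 2-week mutant replicate 3 (vertical axis) against the highest level on the other 11 arrays (horizontal axis), both GCRMA log2, for all 18194 genes, with members coloured by class. The solid line marks equal levels and the dashed line an excess of 5, above which 50 of the 56 members and 18 other genes lie.

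Other genes moved with this array, and their part in the result was not tested. The 18 other genes with an excess of 5 or more included Tchhl1 at 8.44, Padi3, which citrullinates trichohyalin and S100A3, at 7.65, S100a3, a hair cuticle protein, at 6.59, and the shaft keratin Krt36 at 6.70. Padi3 and S100a3 belong to a list of 16 measured genes of hair hardening and adhesion. Of these 16, only 9 were above all other arrays, 8 of them by 1 or more. Hoxc13, a transcription factor of the differentiating shaft, was at 8.09 on mutant replicate 3 and at 4.22 or less elsewhere. Shh, a ligand made in the growing hair bulb, was at 6.73 and at 2.80 or less elsewhere. In a list of hair follicle regulators that also holds Tchhl1, which is not known as one, 12 of 26 genes were above all other arrays. Of the 12, 7 were so by 1 or more, Tchhl1 among them. Below all other arrays were 3 of the 26, with Fgf18 and Eda2r by 1 or more.

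Markers of other tissue differed there as well. All 8 skeletal muscle markers were below every other array, 7 of them by 1 or more, with a mean of 10.676 on mutant replicate 3 against 13.172 to 14.224 on the other arrays. Of 7 cartilage markers 2 were below all other arrays. The mean of 7 markers of dividing cells was 9.632, against 8.12 to 9.437, and all 7 were above every other array, by less than 1. The mean of the cartilage markers was 8.709, against 8.788 to 10.077, and 1 of them was at the floor on all arrays. The mean of 4 sebaceous gland markers was also the lowest there, at 9.936, against 10.448 to 10.875. That of 6 markers of follicle stem cells and the outer root sheath was the highest, at 11.842, against 9.758 to 10.470. Among them Krt75, Lhx2, Lgr5 and Sox9 were above every other array, by 4.075, 1.881, 1.199 and 0.086, and Krt15 and Cd34 were not. The mean of 8 melanocyte markers was also the highest, at 9.655, against 7.437 to 9.566. The mean of 5 dermal papilla markers was the lowest, at 6.503, against 6.732 to 7.732, but its genes did not move together. Corin was 3.06 below every other array and Crabp1 0.90 above every other array. Alx4, Prom1 and Rspo3 lay within the range of the other arrays. The 5 leukocyte markers had a mean of 11.337, within the 9.919 to 11.362 of the other arrays.

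Mutant replicate 2, the other 2-week mutant, lay below wild type for many members. It was below both 2-week wild-type arrays for 31 of the 56 members, against 33.7% of all genes, and above both for 3, Krtap14, Krtap17-1 and Krtap28-13. By more than 0.1 it was below both for 28 of 56, against 21.7% of all genes. Its difference from the wild-type mean had a median of -0.54 over the 56 members and ranged from -2.67 for Krtap4-6 to 0.68 for Krtap14. The wild-type pair also differed, with replicate 2 above replicate 1 by a median of 0.70.

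No member passed the test between genotypes. The fit in limma used all 12 arrays, a filter that asks for a level of 4 or more on at least 2 arrays, and an adjusted p under 0.05 over 11984 genes. Of the 56 members, 38 passed the filter. Of the 18 others, 17 reached 4 on 2-week mutant replicate 3 alone and Krtap13 on no array. Of the 38, 7 passed through mutant replicate 3 and 1 other array, so the filter itself depends on it.

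At 2 weeks 0 members were called in limma, while 0% of all tested genes were called, and 0 members had an unadjusted p under 0.05, against 8.11% of all genes. The estimates were positive for all 38, and the largest was for Krt81, at 3.74 ± 1.92 (log2, SE, n = 2 each, limma adjusted p = 0.611). Without mutant replicate 3 the count was again 0, with 0.0167% of all genes called, and Krt81 turned to -0.27. The estimate was then positive only for Krtap17-1, with a median of -0.87 over the 38 and -0.07 over all genes tested, and 15 members had an unadjusted p under 0.05, against 7.37% of all genes. The lowest adjusted p in limma among them was 0.101, for Krtap19-2, at -1.91 ± 0.27 with 1 mutant against 2 wild-type arrays.

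Krtap19-2, a small glycine- and tyrosine-rich protein gene, was at 13.81 on mutant replicate 3 and 3.40 on replicate 2, against 5.10 and 5.51 in wild type. Krtap4-1, of a cysteine-rich family, was at 13.06 and 4.72, against 6.29 and 6.92 in wild type. For both genes the 2 mutants lay on opposite sides of the wild-type pair. With neither the filter nor mutant replicate 3, limma called 4 of all 56 members at 2 weeks, against 1.59% of 18194 genes: Krtap19-2, Krtap4-1 and Krtap19-5 fell and Krtap28-13 rose. These rest on 1 mutant array whose spread is taken from the other groups. The rise of Krtap28-13 was 0.26, from 2.18 and 2.26 in wild type to 2.48, all near the floor.

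For the average effect over the 3 ages, 0 members were called in limma with all arrays, against 0.643% of all genes, and 0 had an unadjusted p under 0.05, against 14.8%. Its member median was 0.80 with mutant replicate 3 and -0.52 without it, where 0 of 38 members were called, 0.809% of all genes were called, and 11 members had an unadjusted p under 0.05, against 17.3% of all genes.

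No genotype difference passed the test at the later ages. At 4 weeks 0 of 38 members were called in limma and 0 had an unadjusted p under 0.05, with 0% and 3.6% of all genes past these thresholds. The largest estimate was for Tchh, at 6.21 and 6.96 in mutants against 8.19 and 7.50 in wild type, a difference of -1.26 ± 1.58 (log2, SE, limma adjusted p = 1). Both mutants were below both wild-type arrays for 9 of 56 members, against 11.2% of all genes, and above both for 4, against 11.5%. At this age 31 members were at the floor on all 4 arrays, where no difference could be measured.

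At 6 weeks 0 members were called and 0 had an unadjusted p under 0.05, with 0.0334% and 11.9% of all genes past these thresholds in limma. Krt33a had the largest estimate, at 2.26 on both mutant arrays against 6.08 and 2.26 in wild type, a difference of -1.91 ± 2.08 (log2, SE, limma adjusted p = 0.783). Only wild-type replicate 1 lay above that level. Both mutants were below both wild-type arrays for 1 member, Krt32, against 17.9% of all genes, and above both for 1, Krtap17-1, against 14.3%. The change of the mutant effect between 4 weeks and either other age gave 0 member calls in limma, with 0% of all genes called for both. It gave 0 members at an unadjusted p under 0.05, against 2.76% of all genes at 2 weeks and 2.93% at 6 weeks. Array numbers in the labels fall in 3 ranges, which mix genotypes at 4 and 6 weeks. A difference within a range can be given for members off the floor on 1 or more of the arrays compared. Between the mutant mean and the wild-type array of its range it ran from -1.60 to 1.01 over 24 such members at 4 weeks, with a median of -0.08. At 6 weeks it ran from -0.53 to 3.88 over 25 members, with a median of 0.12. Some of these members repeat a low value, such as Krtap3-1 at 3.47 on several arrays, and may have no signal there.

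Age separated the members in wild type. Both 2-week wild-type arrays were above both 4-week ones for 45 of the 56 members, against 14% of all genes, and by over 1 for 35 of the 56, against 0.687%. The same held in the mutants without replicate 3: mutant replicate 2 was above both 4-week mutants by over 1 for 30 of 56 members, against 0.835% of all genes. All 2-week arrays carry numbers of 1 range of their own, so age and that range cannot be told apart for these comparisons.

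With all 12 arrays in the fit, 0 members were called between 4 and 2 weeks in wild type, with 0.459% of all genes called in limma, and 8 had an unadjusted p under 0.05, against 14.6% of all genes. Between 6 and 2 weeks 0 were called, with 4.82% of all genes called, and 4 had an unadjusted p under 0.05, against 24.6% of all genes. The lowest member adjusted p was 0.168 and 0.0732. The gap between the 2-week mutants, which belong to neither side, enters the spread of this fit. Leaving out mutant replicate 3 left each difference as it was and gave smaller standard errors, such as 0.43 for Krtap16-3, against 1.64 with all arrays.

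Without that array, 27 of the 56 members were called lower at 4 than at 2 weeks, all among the 38 that passed the filter, and 1.2% of all genes were called lower. At 6 weeks 24 were called lower than at 2 weeks, and 3.8% of all genes; 23 were called at both ages. No member was called higher. Since 22 of the 38 passed the filter through 2-week arrays alone, they had to be higher there. With no filter 14 and 16 of all 56 were called lower in the same 11 arrays, with 0.291% and 1.16% of 18194 genes called lower. With the filter set on the same 11 arrays, 31 members and 11945 genes were tested, and 22 and 19 members were called lower, against 1.16% and 3.76% of genes. Leaving out a further array as well gave 12 to 34 calls at 4 weeks and 17 to 31 at 6 weeks.

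Keratin-associated proteins made up 22 of the 27. Krtap16-3 was at 2.41 and 2.75 at 4 weeks, against 7.88 and 8.83 at 2 weeks, and fell by 5.78 ± 0.43 (log2, SE, n = 2 each, limma adjusted p = 8.38e-04). Krtap22-2 was at 2.69 and 2.70, against 7.60 and 8.29, and fell by 5.25 ± 0.26 (limma adjusted p = 8e-05). Krtap6-5 was at 2.14 on both, against 7.39 on both, and fell by 5.25 ± 0.33 (limma adjusted p = 3.36e-04). For each of these the ages did not overlap. Each passed the filter through 2-week arrays alone, so it was tested only because it was high at that age. With no filter each was still called, at a larger adjusted p in limma.

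Krtap17-1 was at 3.44 and 3.77 at 4 weeks, against 7.20 and 7.34 at 2 weeks. It too passed the filter through 2-week arrays alone and was still called with no filter, at a larger adjusted p in limma. It fell by 3.67 ± 0.18 (limma adjusted p = 8e-05). For Krtap22-2, called absent on both 4-week arrays, the fitted difference was 38.0-fold. For Krtap16-3, present on 1 of 2, it was 54.8-fold. In MAS5 signal Krtap22-2 was at 44.7 and 49.3 at 4 weeks, against 453.4 and 590.5 at 2 weeks, a smaller fold. Over the 27 calls the fold ran from 2.81 to 54.8 with a median of 11.9, and 18 of the 27 were called present on neither 4-week array. Probe sets called present also lie at the floor in these data (4292 did on every array), so such folds may be too large.

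Inner root sheath genes had differences as large but were mostly not called. Krt73, a cuticle keratin of the sheath, was at 2.16 and 2.34 at 4 weeks, against 5.67 and 6.60 at 2 weeks, and fell by 3.89 ± 0.58 (limma adjusted p = 0.0183). Of the inner root sheath keratins Krt73 alone was called, and with no filter its limma adjusted p was 0.0733. Krt25 was at 5.15 and 4.54, against 9.64 and 10.43, a difference of -5.19 ± 1.80 (limma adjusted p = 0.158). Tchh was at 8.19 and 7.50, against 10.61 and 11.52, a difference of -3.22 ± 1.01 (limma adjusted p = 0.125). The ages did not overlap for any of these, and the larger standard errors of Krt25 and Tchh include the spread between the 6-week wild-type arrays. Called keratin-associated genes such as Krtap6-3, at 2.14 on every 4- and 6-week array, and Krtap22-2 repeat a low value at the later ages. Such arrays add little spread, so the standard errors of these genes may be too small. Calls are therefore not comparable between the classes.

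In the shaft, Krt31, Krt33b, Krt81 and Krt83 fell between 2 and 4 weeks, by 3.17 ± 0.56, 2.24 ± 0.30, 1.49 ± 0.20 and 1.97 ± 0.39 (log2, SE, limma adjusted p = 0.0308, 0.0134, 0.014 and 0.0437). Of these Krt33b, Krt81 and Krt83 passed the filter through mutant replicate 3, which this fit leaves out, and 1 array of 2 weeks, and are not tested when the filter uses the other 11 arrays. With no filter Krt33b and Krt81 were called, and Krt31 and Krt83 had a limma adjusted p of 0.106 and 0.115. Krt32 was at 6.50 and 7.03 at 4 weeks, against 7.30 and 7.31 at 2 weeks, a difference of -0.53 ± 0.24 (limma adjusted p = 0.26). At 6 weeks Krt34 joined the calls, and Krt31, Krtap11-1, Krtap13-1 and Krtap4-6 left them. Whether an age effect differs between members was not tested.

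Melanocyte markers also differed with age. Between 6 and 2 weeks in wild type 6 of 7 tested markers fell in limma without mutant replicate 3 (Dct, Mlana, Oca2, Pmel, Tyr and Tyrp1), with a median of -2.09 over the 7, and the count was 6 with all arrays. Between 4 and 2 weeks the median was -1.08, and Tyr was the 1 marker called without mutant replicate 3. Krt6a, a keratin of the outer root sheath and of stressed epidermis, fell by 1.81 ± 0.22 at 4 weeks and by 2.06 ± 0.22 at 6 weeks (log2, SE, limma adjusted p = 0.00853 and 0.00266). The part of these in the age differences of the members was not tested.

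**Figure D4:**
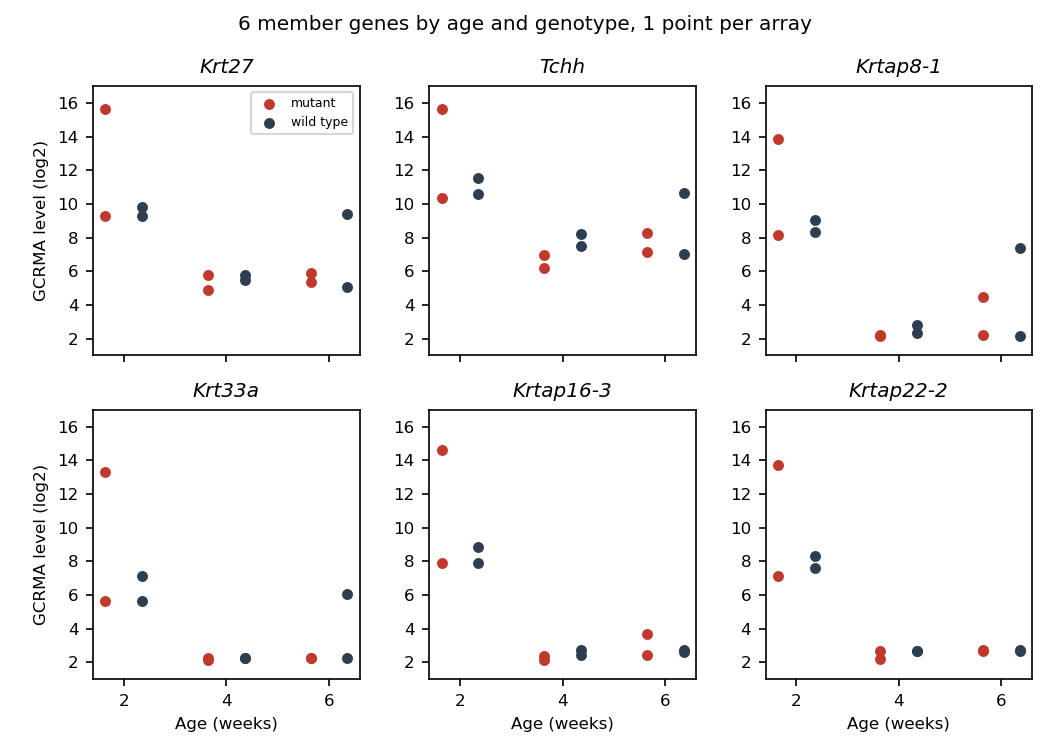
GCRMA level (log2, vertical axis) by age in weeks (horizontal axis) for 6 genes, 1 point per array, with mutants at the left of each age and wild type at the right. The single high 2-week mutant point is replicate 3, and the high 6-week wild-type point of Krt27, Tchh, Krtap8-1 and Krt33a is replicate 1, which is low for Krtap16-3 and Krtap22-2.

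The 6-week wild-type pair was split, and replicate 1 carries array number 8 while the other 6-week arrays carry 18 to 20. This split and the number range therefore cannot be told apart. Replicate 1 was above replicate 3 by 1 or more for 18 of the 56 members, against 0.879% of all genes, and above all 4-week and other 6-week arrays for 29, against 14.5% of all genes. The 18 were 5 of 7 inner root sheath keratins, trichohyalin, 3 type I shaft keratins and 9 keratin-associated proteins, and no type II shaft keratin. Among the mutants, replicate 4 was above replicate 3 by 1 or more for 4, Krt25, Krtap8-1, Krtap16-3 and Tchh, against 0.539% of all genes.

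Krt25 was at 5.76 and 7.19 in 6-week mutants, against 9.64 and 2.60 in wild-type replicates 1 and 3. Krt27 was at 5.36 and 5.88, against 9.43 and 5.04. Krtap8-1 was at 2.21 and 4.47, against 7.38 and 2.14. In each case wild-type replicate 1 was the highest and replicate 3 the lowest of the 4, so the genotypes overlapped. In MAS5 signal, Krt25 was at 99.4 and 286.7 in the mutants, against 889.7 and 20.7 in wild type.

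Levels on 6-week wild-type replicate 1, relative to the 2- and 4-week wild-type means, were uneven across members. Of the 32 genes whose 2-week wild-type mean was 2 or more above the 4-week mean, 13 were within 1.5 of the 2-week mean on that array, and 11 were within 0.5 of the 4-week mean. The 13 included 4 of 5 inner root sheath keratins, trichohyalin, 2 of 4 type I shaft keratins and 6 of 22 keratin-associated proteins. The 11 were 10 keratin-associated proteins and Krt33b. Of the 10, 8 were on chromosome 16, as were 15 of the 22. Both limits were set with the values known, and this is 1 array, so no test was made.

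Krt27 on this array was 0.13 below its 2-week wild-type mean, Krt33a 0.30 and Tchh 0.40 below it. Krtap22-2 was at 2.72 there, against 2.69 on replicate 3 and 2.69 and 2.70 at 4 weeks. Krtap16-3 was at 2.76, against 2.64 on replicate 3. Krt27, Krt33a and Tchh were thus near their 2-week level on an array where Krtap22-2 and Krtap16-3 were near their 4-week level.

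**Figure D5:**
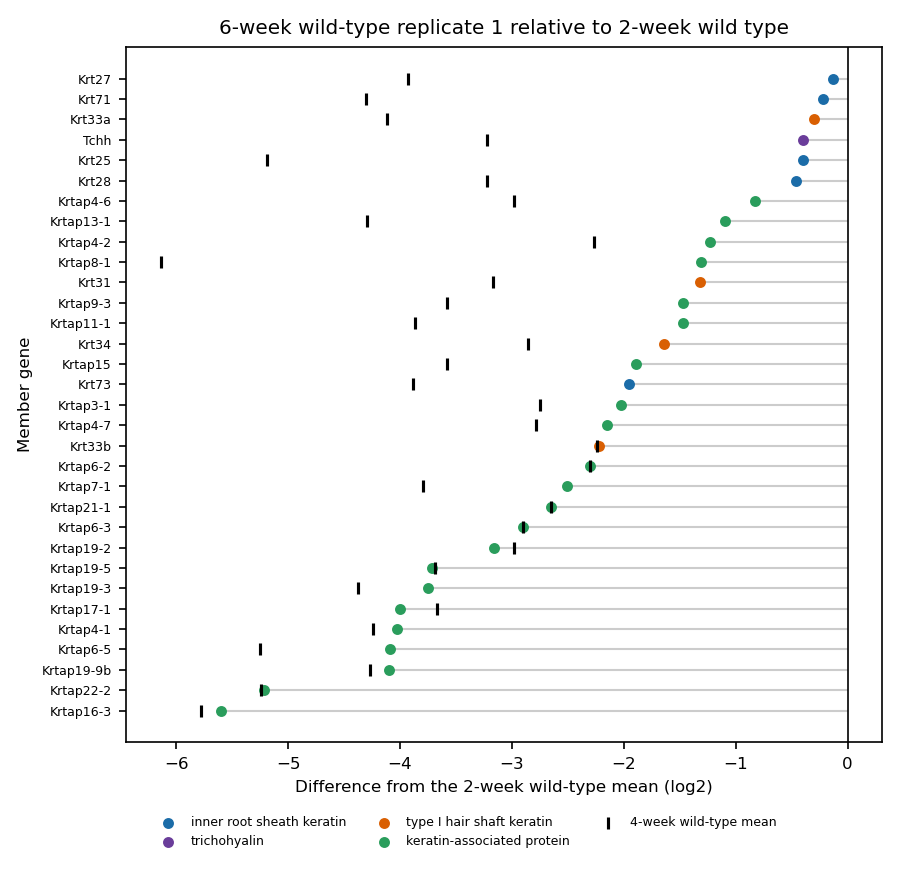
Difference of 6-week wild-type replicate 1 from the 2-week wild-type mean (log2, horizontal axis) for the 32 genes that were 2 or more lower at 4 weeks (vertical axis), with a tick at the 4-week wild-type mean. Krt33a, Tchh and 4 of the 5 inner root sheath keratins lie near 0, Krt73 is at -1.96, and Krtap16-3 and Krtap22-2 lie near their ticks.

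Several marker lists had their lowest mean on that array. The mean of the 8 melanocyte markers was 7.437 on it, against 7.731 to 9.655 on the other 11 arrays, and that of the 7 markers of dividing cells was 8.12, against 8.548 to 9.632. Those of the follicle stem cell and outer root sheath markers, at 9.758, and of 5 fibroblast markers, at 14.589, were also the lowest of the 12 arrays. Their part in the split was not tested. Among the 32 genes, the median difference of this array from the 2-week mean was -0.40 for the 5 inner root sheath keratins and -2.58 for the 22 keratin-associated proteins.

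Between 6 and 4 weeks 0 members were called in wild type or in mutants, with 0% of all genes called in limma for both. At an unadjusted p under 0.05 there were 0 members in either, against 7.11% of all genes in wild type and 4.46% in mutants. In wild type Krtap8-1 had the largest estimate, at 2.21 ± 1.93 (log2, SE, limma adjusted p = 0.824), and it was -0.41 without wild-type replicate 1. In mutants Krt25 was at 5.76 and 7.19 at 6 weeks, against 4.07 and 4.11 at 4 weeks, a difference of 2.38 ± 2.15 (limma adjusted p = 1). The 6-week mutants lay above the 4-week mutants for Krt25 without overlap, but the difference did not pass the test.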

How the data were processed

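The deposited log2 values are GCRMA values: per the submitters' processing notes the authors used GCRMA and MAS5, whose versions are not given in the sources used here. They run from 2.14, the floor, to 16.6, and the series matrix equals them within 4.9999e-09. The deposited intensity values are MAS5 signals with detection calls, scaled by the authors on each array. They gave the calls and an alternative (floor 50, log2). Raw scans were not analysed here.

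Of 45101 probe sets, 34958 named 1 gene, 932 several and 9211 none. The probe set with the highest mean stood for its gene, and 11984 genes at 4 or more on at least 2 arrays were tested in limma 3.58.1 (R 4.3.3), with 6 group means, a variance trend and Benjamini-Hochberg adjustment over all tested genes. Scripts were tested on simulated data. Alternatives were other filters, probe set rules, MAS5, centring, quantile normalization, array weights, no trend, the array number range as a block, a random replicate block and each array left out. A fold is given as fitted, also where the dimmer group was called present on no array. Arrays of the same replicate number and age correlated in their deviations at -0.122, 0.187 and 0.251. With 1 such pair per age, whether the numbers pair samples cannot be told.

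Members, lists and alternatives were chosen with earlier results of these data known. Genes named by rule are the 3 of highest mean per class and, per comparison, up to 5 called in each direction and the 3 largest not called. Others were chosen after their values were seen. Promoters are from RefSeq (GRCm38.p6). Motif searches and figures used Python 3.11.15, pandas 2.3.3, numpy 2.4.6 and matplotlib 3.10.9. The number of arrays limits the precision.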

Additional observations from a re-analysis of the deposited data

How the results depend on the processing

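All values here are numbers of member genes called in limma unless stated. Under every alternative run the count was 0 between genotypes at 4 and at 6 weeks, for the mutant effect at 6 against 4 weeks, and between 6 and 4 weeks in either genotype. The random replicate block gave 0 calls in each of the 10 comparisons. The correlation it fitted within blocks was 0.427. Each age shares only 1 number between genotypes, so whether the numbers pair the samples cannot be told.

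Leaving out 1 array, or 2-week mutant replicate 3 and 1 more (chosen after seeing the data), gave 0 to 30 calls on average over ages, 0 to 35 at 2 weeks, 0 to 30 for the mutant effect at 2 against 4 weeks, 0 to 34 in wild type at 4 against 2 weeks and 0 to 31 at 6 against 2 weeks. The 30, 35 and 30 came without mutant replicate 2, when the array that stands apart is alone in its group. The wild-type counts are 27 and 24 without either 2-week mutant, which follows from the fit, since both leave the same residuals. Without mutant replicate 3 and with no filter the counts were 1, 4, 1, 14 and 16, and with the filter on the other 11 arrays 22 and 19, and on MAS5 signals 23 and 18, for the wild-type ages. These combined settings were also chosen after seeing the data. Array weights gave 4 and 9 for the wild-type ages against 2 weeks. With the array number range as a block these ages could not be fitted. The other alternatives, with all 12 arrays, left them at 0.

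Named log2 estimates that changed sign rest on 1 array each. On average over ages, leaving out 1 array gave -0.13 to 2.54 for Krt81, -0.47 to 2.87 for Krtap4-16 and -0.34 to 2.66 for Krtap21-1, and MAS5 without mutant replicate 3 gave -0.146, -0.211 and -0.0128. At 2 weeks the ranges were -0.27 to 7.75, -1.43 to 8.61 and -1.02 to 7.97, and MAS5 gave -0.0590, -0.393 and -0.452. At 6 weeks they were -3.80 to 0.58 for Krt27 and -3.16 to 0.0514 for Krtap13-1, and in wild type at 6 against 4 weeks -0.41 to 4.83 for Krtap8-1 and -0.59 to 3.80 for Krt27. The cause was not tested. Few arrays and the floor of GCRMA limit what low genes can show.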

Other observations

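The 6 keratin-associated probe sets that name several genes each had an excess of 4.78 to 7.75 on 2-week mutant replicate 3 over the highest other array. The probe set shared by Krtap6-1 and 2 predicted genes was at 13.8 on mutant replicate 3 and 7.45 on replicate 2, against 7.42 and 8.02 in wild type at 2 weeks, and at 2.61 to 3.06 on all later arrays. One shared by Krtap3-2 and Krtap3-3 stayed between 4.51 and 8.31 at 4 and 6 weeks, unlike most members.

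Krt84, a keratin of nail and tongue papillae that is no member here, did not follow 2-week mutant replicate 3. It was at 9.15 and 9.07 in the 2-week mutants, against 3.87 and 3.38 in wild type, at 3.80 and 6.98 in 4-week mutants, against 2.68 and 2.60 in wild type, and at 6.05 and 6.61 in 6-week mutants, against 2.18 on both wild-type arrays. At each of the 3 ages the genotypes did not overlap.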
